A study of Arabidopsis thaliana with 2 samples.

Results

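Catalases, ascorbate peroxidases and superoxide dismutases are the enzymes with which plant cells dispose of superoxide and hydrogen peroxide. The set described here held 10 genes of Arabidopsis thaliana, taken by locus number from a table of 22937 loci: the catalases CAT1, CAT2 and CAT3, the ascorbate peroxidases APX1, APX2 and APX3, and the superoxide dismutases CSD1, CSD2, FSD1 and MSD1. The choice was by gene family, not by a measured value, and was made with earlier results of these data known. Of the 10 genes, 9 were listed in the table and 7 reached 50 reads in at least 1 library, the minimum for calling a gene measured. APX2 was not listed, and CAT3 and APX1 were too shallow.

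RNA came from the root tips of primary roots of the wild-type accession Col and of atphb3, a mutant named for PROHIBITIN 3 (PHB3), whose protein is a scaffold in the inner membrane of mitochondria. Seeds of both were kept for 3 days at 4 °C on Murashige and Skoog medium, and seedlings grew at 20 °C under days of 16 h and nights of 8 h, without further treatment. The labels give neither the nature of the atphb3 allele, nor the age of the seedlings, nor the hour of harvest, and the extraction protocol also mentions shoots. Each group held 1 library, so no replicate error could be computed and no difference was tested between genotypes. Ratios of single genes carry exact 95% Clopper-Pearson intervals, which hold counting error alone and compare 2 libraries.

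The libraries held 7451022 reads in Col against 7384348 in the library labelled atphb3, so that 1 read equalled 0.134 and 0.135 CPM (reads per 1000000 reads of the library). PHB3 had 915 reads in Col against 863 in the other library, a ratio of 0.952 (0.866 to 1.05), which gave no check of the label. Of 12931 measured loci, 9.74% were higher by 2-fold or more in the library labelled atphb3, 10.1% were lower by as much and 80.2% lay within 2-fold. Markers of tissues also differed between the libraries. All 9 root tip markers were listed, and their summed level was 146 CPM in Col against 301 in the library labelled atphb3. The 6 root hair markers had 408 and 804 CPM. Of 14 green tissue markers 13 were listed, at 1130 and 507 CPM in sum, and RBCS1B, a Rubisco small subunit gene, had 19 reads and 0. LHB1B2, which went the other way, supplied 287 and 326 CPM of that sum. Of the 9 measured green tissue markers 7 were lower by 2-fold or more, and their median log2 ratio was -3.19. Phloem markers had 472 and 139 CPM and xylem markers 556 and 328. No other listed marker was at 0. In bulk RNA, fewer cells of a type and less RNA per cell cannot be told apart, and the part of tissue make-up in the results that follow was not tested.

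Superoxide dismutases turn superoxide into hydrogen peroxide and oxygen, and differ by the metal they hold and by where they work. CSD1 is the copper/zinc enzyme of the cytosol, CSD2 that of the plastid, FSD1 is an iron enzyme and MSD1 is the manganese enzyme of the mitochondrial matrix. Hydrogen peroxide is then removed by catalases, which sit mainly in peroxisomes and need no reductant, and by ascorbate peroxidases, which spend ascorbate that the ascorbate-glutathione cycle restores. Iron and copper/zinc enzymes are known to replace each other with copper supply: when copper is scarce, the factor SPL7 switches on FSD1 and the microRNA miR398, and miR398 lowers CSD1, CSD2 and their copper chaperone CCS.

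None of the 7 measured genes reached a 2-fold difference. In the library labelled atphb3, 0 were higher by 2-fold or more, 0 were lower and 7 lay within 2-fold, the range that held 80.2% of all measured loci. FSD1, CAT2 and APX3 were at least 1.5-fold higher, which 22.0% of all measured loci were, and 0 were at least 1.5-fold lower, which 18.3% of loci were. The counting interval lay above 1 for FSD1, CAT2, APX3 and MSD1, as it did for 37.7% of all loci, and below 1 for CSD1, as it did for 30.1%. The log2 ratio was above 0 in 6 of 7 genes, against 54.6% of loci, and that of CAT1 among them, at 0.04, turned to -0.02 under TMM scaling, which left 5 of 7. The median log2 ratio of the 7 was 0.51, with a range of -0.53 to 0.88, beside a median of 0.08 over all measured loci.

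**Figure D1:**
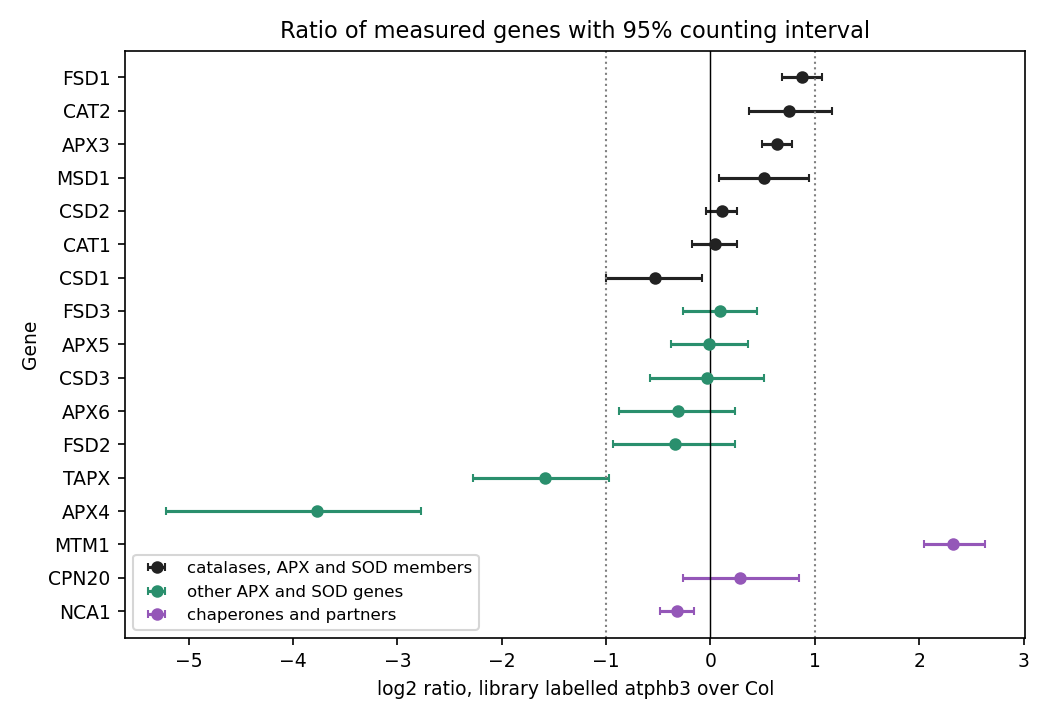
Log2 ratio of CPM, library labelled atphb3 over Col, with bars for the exact 95% interval of counting error. Shown are the measured genes of the enzyme set, of the other ascorbate peroxidases and superoxide dismutases, and of the proteins that equip them. Within the enzyme set FSD1 lies highest at 0.88 and CSD1 is the only gene below 0, at -0.53. Over all genes shown, MTM1 lies highest at 2.33 and APX4 lowest at -3.77. CAT3 and APX1 were not measured and are not drawn.

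The reach of these values differs from gene to gene, because loci with several annotated transcripts had a lower median of reads in this table. In the RefSeq annotation of TAIR10.1, CAT1, APX3 and CSD2 have 1 transcript each, so that each 50-base stretch of them belongs to that transcript alone. CSD1 and MSD1 have 2 transcripts, CAT2 has 3, FSD1 has 5, CAT3 has 6 and APX1 has 8, and in no transcript of these genes was more than 16.1% of such stretches its own. Across the annotation, listed loci with 1 transcript had a median of 128 reads in Col and those with 5 or more a median of 15, and 69.0% against 28.6% of them were measured. The sources used here do not say how the authors counted reads that fit several transcripts. Levels of the genes with several transcripts are therefore uncertain, and those of CAT3 and APX1 in particular cannot be read as low expression. The reads did not follow the number of transcripts in each gene, since FSD1 had 343 and 624 reads with 5 transcripts.

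**Figure D2:**
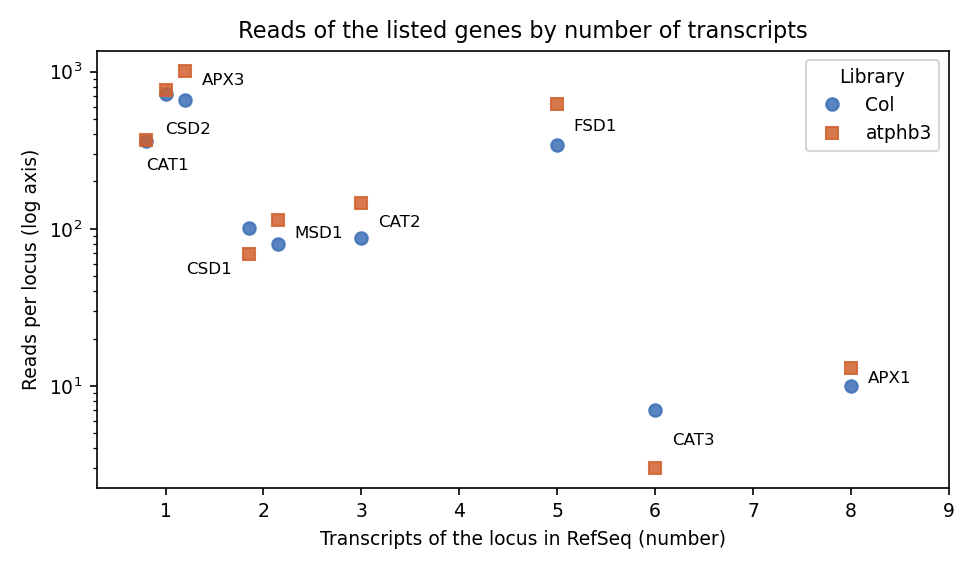
Reads per locus on a log axis against the number of transcripts of the locus in RefSeq, for the 9 listed genes in both libraries, with genes of 1 and 2 transcripts moved sideways a little to keep them apart. The genes with 1 transcript had 361 to 1016 reads, FSD1, with 5, had 343 and 624, and CAT3 and APX1, with 6 and 8, had 3 to 13.

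CSD2 and APX3 had the highest counted levels per length in both libraries. CSD2 stood at 99.5 RPKM (CPM per kb of transcript) in Col (95% Poisson interval of counting error 92.4 to 107) against 107 (99.7 to 115) in the library labelled atphb3. APX3 stood at 72.0 (66.6 to 77.8) and 112 (105 to 119), so that in the second library its interval overlapped that of CSD2. FSD1 followed with 41.6 and 76.3, and CAT1 with 23.9 and 24.6, each apart from its neighbours in both libraries. Below them CSD1 had 15.5 and 10.7, MSD1 10.4 and 14.9, and CAT2 6.04 and 10.2. In Col the intervals of CSD1 (12.7 to 18.9) and MSD1 (8.27 to 12.99) overlapped. In the library labelled atphb3 MSD1 came before CSD1, with overlapping intervals of 12.3 to 17.9 and 8.34 to 13.6, and CAT2 (8.62 to 12.0) overlapped CSD1. This is an order of counted reads, in which only CSD2, APX3 and CAT1 rest on a single annotated transcript.

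**Figure D3:**
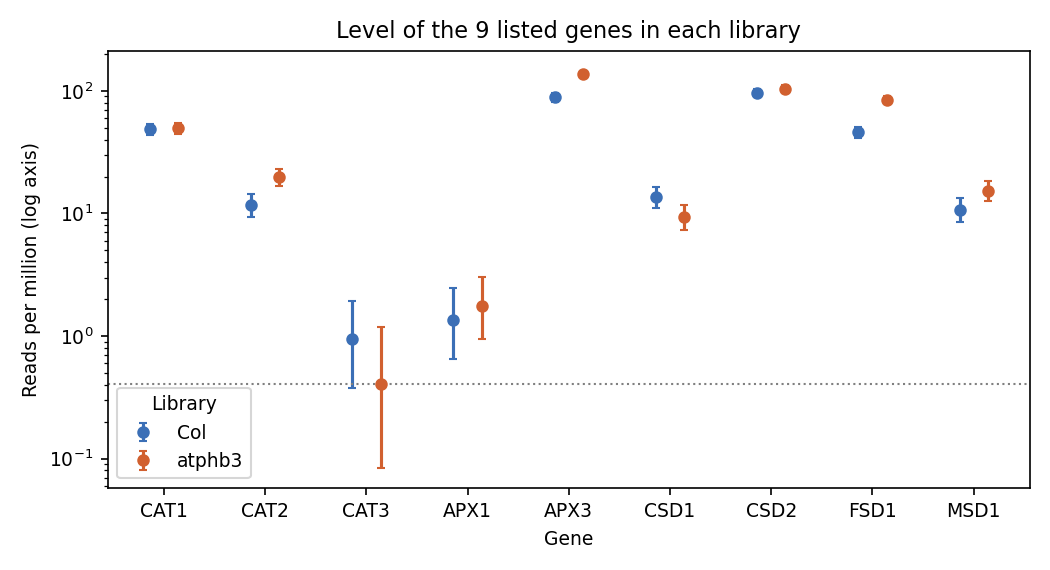
Level of each listed gene in CPM on a log axis in each library (Col in blue, that labelled atphb3 in orange), with bars for the 95% interval of counting error and a dotted line at the 0.403 to 0.406 CPM that 3 reads equal. APX3 and FSD1 stand apart between the libraries, while CAT1 and CSD2 nearly coincide.

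Among the superoxide dismutases, the iron enzyme was higher and the cytosolic copper/zinc enzyme lower in the library labelled atphb3. FSD1 (AT4G25100, chromosome 4, 12884300 to 12886821 in the deposited table, minus strand) had 343 reads in Col against 624 in the other library, or 46.0 and 84.5 CPM. Its ratio was 1.84 (1.61 to 2.10), a log2 ratio of 0.88, and 75.8% of measured loci had a smaller difference. Almost all of its reads were assigned to the second of its transcripts, with 340 of 343 in Col and 620 of 624 in the other library. CSD1 (AT1G08830, chromosome 1, 2827061 to 2829315, plus strand) had 101 and 69 reads, or 13.6 and 9.34 CPM. Its ratio was 0.689 (0.50 to 0.946), and 55.8% of measured loci had a smaller difference than its log2 ratio of -0.53. CSD1 overlaps AT1G08840, a DNA replication helicase gene on the other strand, which had 16 and 15 reads. No strand-marking kit is named in the protocols, and reads from the overlap cannot be assigned with certainty.

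CSD2, the plastid copper/zinc enzyme, and MSD1, the mitochondrial manganese enzyme, differed less. CSD2 (AT2G28190, chromosome 2, 12014498 to 12016569, plus strand) had 717 reads in Col against 765 in the library labelled atphb3, or 96.2 and 104 CPM, a ratio of 1.08 (0.971 to 1.19) whose interval included 1. MSD1 (AT3G10920, chromosome 3, 3417954 to 3419853, plus strand) had 80 and 113 reads, or 10.7 and 15.3 CPM. Its ratio was 1.43 (1.06 to 1.92), near the middle of the measured loci, since 53.6% of measured loci had a smaller difference.

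The make-up of the superoxide dismutase reads therefore differed between the libraries. A share within a library does not depend on the scaling between libraries. FSD1 carried 27.6% of the reads of the 4 genes in Col (exact binomial interval 25.2% to 30.2%) against 39.7% (37.3% to 42.2%) in the library labelled atphb3. CSD1 and CSD2 together carried 65.9% (63.2% to 68.6%) and 53.1% (50.6% to 55.6%), on 818 and 834 reads. Their lower joint share thus went with more reads of FSD1 and MSD1 and not with a lower sum of their own. CSD1 by itself had fewer reads, 101 and 69. CSD1 alone had 8.14% (6.68% to 9.80%) and 4.39% (3.43% to 5.53%), and CSD2 57.8% (55.0% to 60.5%) and 48.7% (46.2% to 51.2%). None of these 4 pairs of intervals overlapped. MSD1 held 6.45% and 7.19%. These shares also rest on how reads were counted for FSD1, with 5 transcripts, and for CSD1 and MSD1, with 2 each. Reads of FSD1 per read of CSD2 were 0.478 in Col against 0.816 in the other library, or 0.418 and 0.712 per length. As a class, the 4 genes had 1241 and 1571 reads, a ratio of 1.28 (1.18 to 1.38).

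**Figure D4:**
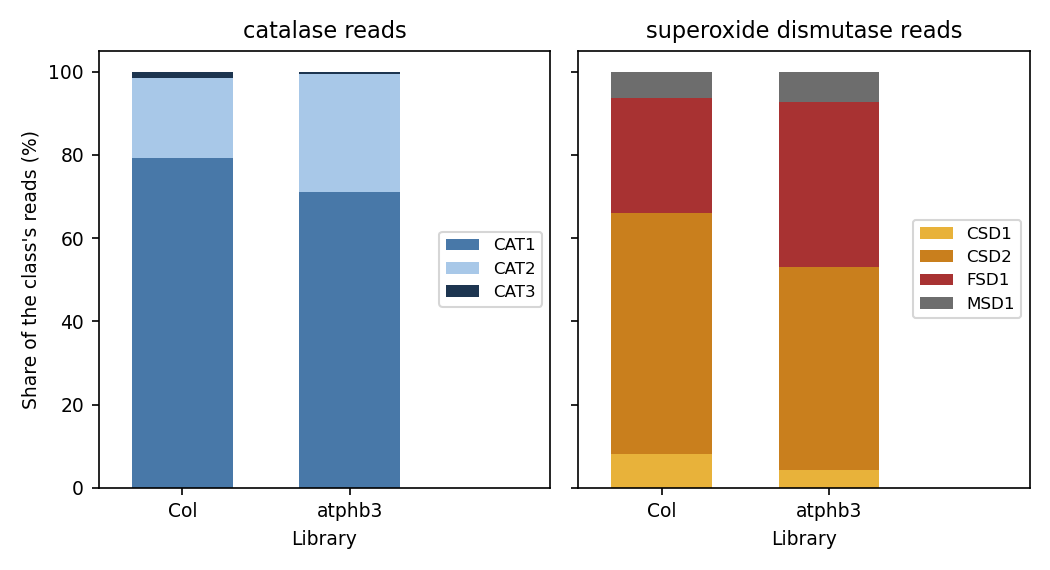
Share in percent of the catalase reads and of the superoxide dismutase reads carried by each listed gene in each library. FSD1 held 27.6% of superoxide dismutase reads in Col against 39.7% in the other library, and CAT2 held 19.1% and 28.2% of catalase reads.

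Because the copper switch acts on CSD1 and CSD2 through miR398, the microRNA is shown with the stretches of the mRNAs that pair with it best, all from RefSeq (TAIR10.1). In the microRNA the capitals mark the seed, bases 2 to 8. In the mRNA stretches the capitals mark bases that form Watson-Crick pairs with miR398b-3p when it is laid on without gaps. miR398b-3p lies at chr5:4691107-4691127 on the plus strand and has the same mature sequence as miR398c-3p.
miR398a-3p: uGUGUUCUcaggucaccccuu
miR398b-3p: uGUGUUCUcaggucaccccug
CSD1: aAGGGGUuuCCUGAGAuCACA
CSD2: ugcGGGUGACCUGgGAAacau
CCS: auuGGGaGACCUGgGAACACu
The CSD1 stretch lies in the 5′ UTR at chr1:2827177-2827685 on the plus strand, with an intron inside it, and 17 of 21 bases paired. The CSD2 stretch lies in the coding sequence at chr2:12015572-12015592 on the plus strand, with 13 paired bases and 3 G-U pairs. The CCS stretch lies in the coding sequence at chr1:4267521-4267541 on the minus strand, with 15 paired bases and 1 G-U pair. The best stretch of FSD1 had 14 paired bases and 1 G-U pair, so that this count alone did not set FSD1 apart from CSD2. CCS itself had 5 and 7 reads and was not measured. The MIR398C precursor, named although it had too few reads, had 39 reads in Col against 33 in the library labelled atphb3, and the precursors MIR398A and MIR398B were not listed. Mature microRNAs were not analysed here.

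SPL7 is known to bind DNA with GTAC at the core. The 250 bases before the annotated start of the FSD1 locus hold this word once, 145 bases before that start. The window is shown with the word in capitals (RefSeq TAIR10.1, chr4:12887012-12887261, minus strand, written 5′ to 3′).
FSD1: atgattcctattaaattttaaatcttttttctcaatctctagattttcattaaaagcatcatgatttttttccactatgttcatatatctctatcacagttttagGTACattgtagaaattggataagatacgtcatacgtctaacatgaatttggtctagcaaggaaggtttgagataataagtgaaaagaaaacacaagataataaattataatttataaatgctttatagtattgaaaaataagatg
The locus start, at 12887011, is that of transcript AT4G25100.5, which was not listed. Transcript AT4G25100.2, which had almost all of the FSD1 reads, starts at 12886902 in RefSeq, so the word lies further from its start. GTAC reads the same on both strands and was present in 34.3% of 27443 such windows. Among the 10 genes, CAT2 and CSD1 held it 2 times, APX2 and FSD1 1 time and the other 6 did not hold it. Of 9 copper response genes searched, 3 held it. COPT1, COPT2, FRO4 and FRO5 had 0, while YSL2 and ZIP2 had 3 each and CCH had 1. The mitochondrial dysfunction motif, which stress factors of the NAC family are known to bind, was searched on both strands, was present in 1.75% of windows and in 0 of the 10. A matching word is no more than that, and no binding was measured.

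Counted catalase reads came mostly from CAT1, which did not differ between the libraries beyond counting error, while CAT2 was higher in the library labelled atphb3. CAT1 (AT1G20630, chromosome 1, 7146636 to 7149977, plus strand) had 361 reads in Col against 368 in the other library, or 48.4 and 49.8 CPM. Its ratio was 1.03 (0.887 to 1.19), and only 4.72% of measured loci had a smaller difference. CAT2 (AT4G35090, chromosome 4, 16700342 to 16703325, minus strand), known as the main catalase of leaf peroxisomes, had 87 and 146 reads, or 11.7 and 19.8 CPM. Its ratio was 1.69 (1.29 to 2.23), a log2 ratio of 0.76. Of its reads, 86 and 143 belonged to the first transcript. CAT2 overlaps AT4G35080 on the other strand, described as a nickel transport family protein, which was not listed. CAT3 (AT1G20620, chromosome 1, 7143067 to 7146540, plus strand) had 7 and 3 reads, a ratio of 0.432 with an interval of 0.0722 to 1.89. CAT3 and CAT1 lie in tandem, 95 bases apart.

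In shares, CAT1 held 79.3% (75.3% to 83.0%) of catalase reads in Col against 71.2% (67.1% to 75.1%) in the library labelled atphb3. CAT2 held 19.1% (15.6% to 23.04%) and 28.2% (24.4% to 32.3%), intervals that did not overlap. The 3 catalases together had 455 and 517 reads, a ratio of 1.15 (1.01 to 1.30). CAT1 has 1 transcript, whereas CAT2 has 3 and CAT3 has 6. The catalase shares and sums therefore rest on how reads of CAT2 and CAT3 were counted, and cannot be read as the order of their expression. CAT2 and CAT3 are known to cycle over the day, with CAT2 early and CAT3 late. Clock genes differed beside them. The evening gene TOC1 had 3395 and 483 reads and ELF3 1755 and 552, while PRR7, of the morning, had 1363 and 736. PRR5 and ELF4, of the evening, with 580 and 45 and with 1456 and 31 reads, reached 50 reads through Col alone. CCA1 and RVE8, of the morning, with 4 and 64 and with 13 and 112, reached them through the library labelled atphb3 alone. The part of the hour of harvest in the CAT2 difference was not tested.

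APX3 supplied almost all counted ascorbate peroxidase reads and was higher in the library labelled atphb3. APX3 (AT4G35000, chromosome 4, 16664822 to 16667718, minus strand), an ascorbate peroxidase anchored in the peroxisomal membrane, had 658 reads in Col against 1016 in the other library, or 88.3 and 138 CPM. Its ratio was 1.56 (1.41 to 1.72), a log2 ratio of 0.64, and 63.4% of measured loci had a smaller difference. APX3 has 1 transcript and no overlapping gene, so neither limit touches it. APX1 (AT1G07890, chromosome 1, 2437330 to 2439665, plus strand), the main cytosolic enzyme, had 10 and 13 reads, a ratio of 1.31 (0.531 to 3.34), and APX2, a cytosolic enzyme known for its induction by heat and strong light, was not listed. APX3 held 98.5% and 98.7% of the class's reads, a share that rests on how the 8 transcripts of APX1 were counted.

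None of the remaining measured ascorbate peroxidases and superoxide dismutases was higher by 2-fold or more. Of 9 further genes, 7 were measured, of which 2 were lower by as much, and the median log2 ratio was -0.31. Of all measured loci, 9.74% were higher by 2-fold or more and 10.1% lower. The 2 are nuclear genes for plastid proteins. APX4, annotated as a thylakoid lumen protein for which no peroxidase activity has been found, had 103 reads in Col against 7 in the library labelled atphb3, 14.6-fold lower (6.83 to 37.2). TAPX, the thylakoid ascorbate peroxidase, had 86 and 28, 3.04-fold lower (1.97 to 4.84). Beside these, the green tissue markers had 1130 and 507 CPM in sum, and a median log2 ratio of -3.19 over the 9 measured. Some of these 9 were measured through Col alone. The part of green tissue in the difference was not tested. APX5 had 127 and 125 reads, APX6 64 and 51, and CSD3, the peroxisomal copper/zinc enzyme, 60 and 58. The plastid iron enzymes FSD2 and FSD3 had 59 and 46 reads and 132 and 139. The interval of each of these 5 included 1. SAPX had 2 and 4 reads, and AT3G56350, an iron/manganese superoxide dismutase family gene, 1 and 0.

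Of the proteins that equip these enzymes, MTM1 differed most. MTM1, annotated as the manganese tracking factor for mitochondrial superoxide dismutase, had 121 reads in Col against 604 in the library labelled atphb3, 5.04-fold higher (4.14 to 6.17). MSD1, the enzyme it is named for, was 1.43-fold higher. NCA1, a zinc ion binding protein known to aid catalase activity, had 684 and 543 reads, a ratio of 0.801 (0.714 to 0.898). CPN20, a plastid co-chaperonin linked to iron superoxide dismutase, had 52 and 63 reads, a ratio of 1.22 (0.833 to 1.80). AT2G46320, a mitochondrial substrate carrier family gene, had 6 and 5 reads.

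The ascorbate-glutathione cycle went both ways. Of 8 measured genes, 2 were higher by 2-fold or more (9.74% of all measured loci were) and 1 was lower by as much (10.1% were). Their median log2 ratio was 0.27. GR1, a glutathione reductase, had 69 reads in Col against 240 in the library labelled atphb3, 3.51-fold higher (2.67 to 4.66). MDAR1, a monodehydroascorbate reductase, had 34 and 81, 2.40-fold higher (1.59 to 3.70). DHAR1, a dehydroascorbate reductase, had 387 and 119, 3.22-fold lower (2.62 to 3.99). GR1 has 3 and MDAR1 2 transcripts, so their levels are uncertain. Ascorbate and glutathione synthesis genes lay within 2-fold in 5 of 5, as 80.2% of all measured loci did, with a median of -0.02. Glutathione synthetase GSH2 had 1496 and 1024 reads, a ratio of 0.691 (0.637 to 0.748), and VTC2, of ascorbate synthesis, 601 and 850, a ratio of 1.43 (1.28 to 1.59).

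Other peroxidases were examined by family, without a test between families. Of 7 measured peroxiredoxins, thiol enzymes that also reduce hydrogen peroxide, 3 were higher by 2-fold or more in the library labelled atphb3, where 9.74% of all measured loci were, and 0 lower, and the median log2 ratio was 0.70. AT3G52960, described as a thioredoxin superfamily protein, had 622 and 1377 reads, 2.23-fold higher (2.03 to 2.46). TPX2 (AT1G65970) had 332 and 688, 2.09-fold higher (1.83 to 2.39), and AT1G60740, with the same description as AT3G52960, 25 and 51, 2.06-fold higher (1.25 to 3.47). Of 6 measured glutathione peroxidases, 0 were 2-fold apart (19.8% of all measured loci were) and the median was -0.08. GPX6 had 4145 and 2498 reads, a ratio of 0.608 (0.578 to 0.639), and GPX2 2067 and 2618, a ratio of 1.28 (1.21 to 1.35).

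Sources of peroxisomal hydrogen peroxide gave a mixed picture beside the catalases and APX3. Of 8 measured peroxisomal oxidases, 0 were 2-fold apart (19.8% of all measured loci were) and 6 had a log2 ratio above 0 (54.6% did). Their median was 0.35. ACX4, an acyl-CoA oxidase of fatty acid breakdown, had 3987 reads in Col against 3042 in the library labelled atphb3, with a ratio of 0.770 (0.734 to 0.807). PAO4, a polyamine oxidase, had 1211 and 2377, a ratio of 1.98 (1.85 to 2.12). Photorespiration, which feeds leaf peroxisomes with hydrogen peroxide, had 3 measured genes. Of these, 2 were lower by 2-fold or more (10.1% of all measured loci were) and 0 higher (9.74% were). AT2G35370, the H protein of glycine decarboxylase, had 67 and 3 reads and was 22.1-fold lower (7.26 to 110). SHM1, serine hydroxymethyltransferase, had 1010 and 311 and was 3.22-fold lower (2.83 to 3.67). GGT1, the other measured gene, had 55 and 49, a ratio of 0.899 (0.599 to 1.35). Heat shock factors and heat response genes, of which factors of the HSFA1 group are known to act on APX2, had a median of -0.39. Of 7 measured, 0 were higher by 2-fold or more (9.74% of all measured loci were) and 1 was lower by as much (10.1% were). That gene was HSFA8, with 132 and 35 reads, 3.74-fold lower (2.56 to 5.59).

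Genes that plants switch on when copper is scarce were examined beside FSD1. In the library labelled atphb3, 2 of 7 measured genes were higher by 2-fold or more (9.74% of all measured loci were) and 0 lower, 6 had a log2 ratio above 0 (54.6% of loci did) and the median was 0.77. COPT1, a copper importer, had 62 reads in Col against 213 in the other library, 3.47-fold higher (2.60 to 4.68). FRO5, of the metal reductase family, had 75 and 205, 2.76-fold higher (2.11 to 3.64). COPT2, a copper importer picked out by its value, had 264 and 480, a ratio of 1.83 (1.58 to 2.14). ZIP2, a metal transporter named as the exception, had 3704 and 2615, a ratio of 0.712 (0.677 to 0.749). SPL7 had 2 and 1 reads and was not measured. The root hair markers were summed at 408 and 804 CPM, and the part of hair cells in the copper genes was not tested.

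Targets of the copper microRNAs other than CSD1 and CSD2 had no common direction. Of 8 measured, 2 were higher by 2-fold or more (9.74% of all measured loci were) and 1 was lower by as much (10.1% were). A log2 ratio above 0 was found for 4 (54.6% of loci), and the median was 0.17. LAC12, a laccase, had 19 reads in Col against 368 in the library labelled atphb3, 19.5-fold higher (12.3 to 32.8). AT3G15640, described as a rubredoxin-like protein, had 33 and 84, 2.57-fold higher (1.70 to 3.97). LAC2, a laccase, had 339 and 75, 4.48-fold lower (3.48 to 5.83). LAC12, AT3G15640, MDAR1 and AT1G60740 reached 50 reads through the library labelled atphb3 alone, and APX4, TAPX, HSFA8 and AT2G35370 through Col alone, so that the difference itself helped decide that they were counted.

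**Figure D5:**
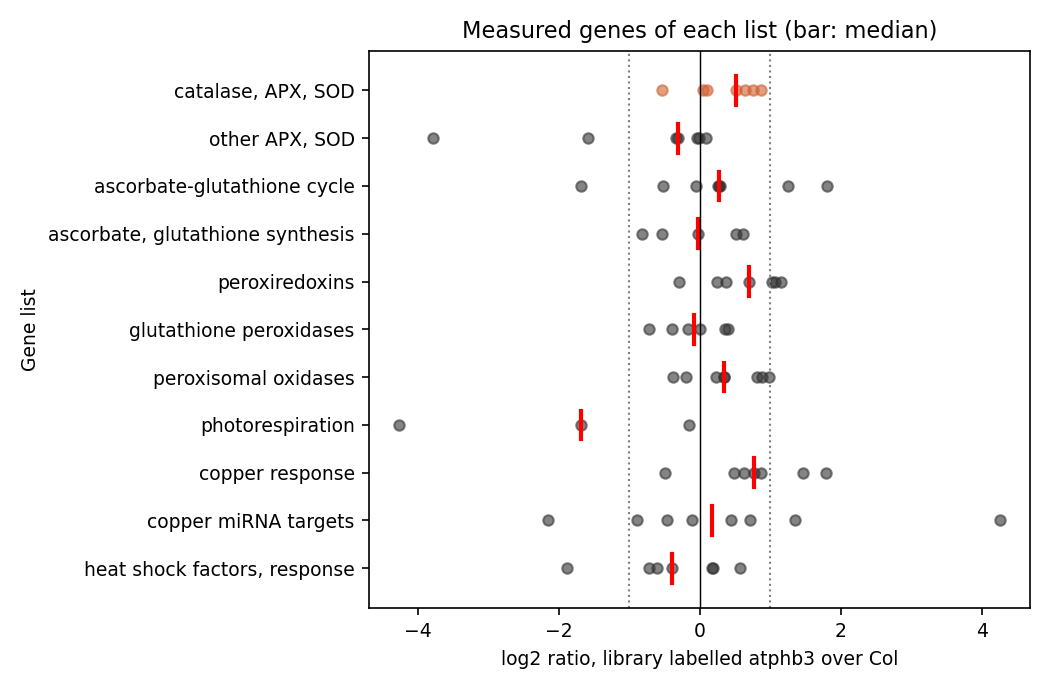
Log2 ratio of CPM, library labelled atphb3 over Col, of each measured gene in the enzyme set and in the related gene lists, with a red bar at each list's median and dotted lines at 2-fold. The enzyme set spans -0.53 to 0.88 with a median of 0.51, inside the dotted lines, while each of the other lists except the synthesis genes, the glutathione peroxidases and the peroxisomal oxidases has genes beyond them.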

How the data were processed

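The labels' protocols describe random-primed cDNA of total RNA, read on an Illumina machine. Per the file headers, the authors deposited for each of 26425 transcripts a read count and an RPKM value per library, together with a log2 ratio, p-value and false discovery rate. Those 3 deposited values rest on 1 library per side and were left aside. Aligner, counting tool and genome build are not given in the sources used here.

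Counts were summed to loci and scaled to the library total as CPM. Log2 ratios used 0.5 added reads, and fold values none. Reads carried no molecular identifiers, so intervals cover counting error only. A floor of 3 counts equals 0.403 CPM in Col and 0.406 in the other library. Of 25496 listed nuclear transcripts found in RefSeq TAIR10.1, 98.9% lay inside the RefSeq locus, and sequences were read from that genome. Some deposited spans, such as those of CAT2 and FSD1, differ from RefSeq's.

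The members and lists were chosen with earlier results of these data known. All members were named, measured relatives and partners too. From other lists the 4 most different genes past 2-fold were named, or failing that the 2 with most reads per kb. Some genes were named outside this rule, among them PRR7, COPT2, ZIP2, GGT1 and single tissue markers. Calculations were tested on simulated counts. Alternatives were TMM (edgeR 4.0.16), median of ratios (DESeq2 1.42.0), other pseudocounts, minima and fold limits. The software was R 4.3.3 and Python 3.11.15 (scipy 1.17.1, pandas 2.3.3, numpy 2.4.6).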

Additional observations from a re-analysis of the deposited data

How the results depend on the processing

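The log2 ratio of CAT1, 0.04 with an interval that included 0, turned to -0.02 under TMM, -0.0023 under median of ratios and -0.03 without the 10 most abundant loci, which left 5 of 7 genes above 0 in place of 6. No other measured gene turned. At a limit of 1.5-fold, 3 of the enzyme genes were higher, against 0 at 2-fold. With no filter on reads 1 gene, CAT3 on 7 and 3 reads, was at least 2-fold lower, against 0. Per kb of transcript, CSD2 held 51.3% of superoxide dismutase levels in the library labelled atphb3, and FSD1 24.9% in Col and 36.5% in the other library. The median log2 ratio ranged from 0.11, over the 3 genes with 1 transcript, an alternative chosen after seeing the data, as was leaving out the genes that overlap another locus, to 0.51. Over all scalings and pseudocounts, log2 ratios ranged from 0.80 to 0.88 for FSD1, 0.69 to 0.76 for CAT2, 0.57 to 0.64 for APX3, 0.44 to 0.51 for MSD1, 0.04 to 0.11 for CSD2, -0.60 to -0.52 for CSD1 and -0.03 to 0.04 for CAT1. No paired analysis was possible because each group held 1 library without a replicate number, and no replicate could be left out. CAT3 and APX1, with 3 to 13 reads, had ratio intervals that included 1, and whether depth or the counting of shared reads left them so few was not tested.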
